A study of Mus musculus with 8 samples.

Results

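The genes described here are 10 members of the Notch pathway: the receptors Notch1, Notch2 and Notch4, the ligands Dll1, Dll4, Jag1 and Jag2, the target genes Hes1 and Hey1, and Efnb2, an arterial gene placed downstream of Notch. They were picked by symbol among 36149 distinct gene-name entries, some of them bare probe or locus identifiers, on a mouse Agilent expression array. No value entered that rule, but the members were chosen with earlier results of these data known. They had 13 probes of 60 bases, a pair each for Notch1, Notch2 and Efnb2. Of the 10 genes, 7 had a probe well above background on at least 2 of 8 arrays and were tested. Dll1, Dll4 and Efnb2 did not, and are given as values only.

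RNA was measured in cells sorted by FACS from the bone marrow of mice of 6 weeks and a mixed strain (B6/CBA and others), with no treatment after the sort. KSL cells (c-Kit+, Sca-1+, lineage-negative) are the gate that holds blood stem and multipotent progenitor cells, and Gr-1+/Mac-1+ (Gr) cells are a granulocyte and monocyte gate. Each came from control and Vav-Etv2 animals. In the latter an Etv2 transgene is turned on by a second transgene, Vav-iCre. Vav elements drive Cre across blood cells and in some endothelium, and Etv2 is an ETS transcription factor that starts endothelial and blood development in the embryo. There were 2 arrays per group. The labels say neither which alleles the controls carried nor whether a replicate was 1 animal or a pool, so each p-value reflects no more than the variation among these samples, which may be technical.

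Notch receptors are cut by ADAM proteases and gamma-secretase when a neighbouring cell presents a Delta or Jagged ligand. The released intracellular part joins RBPJ and a Mastermind protein on DNA and turns on target genes such as those of the Hes and Hey families. In endothelium the pathway is known for arterial identity and sprouting, with Dll4, Notch1 and Notch4 prominent, and in blood it is known for T cell commitment.

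Levels are log2 signals relative to the 75th percentile of the same array, so a level of 0 lies at that percentile and 1 unit is a doubling. A level is not compared between probes. The share of probes well above background ran from 47.7% to 55.5% over the arrays, with 0 saturated. The difference between the replicates of a group had a standard deviation over the tested features of 0.556 (KSL control) to 1.05 (Gr control). All 8 arrays lay on 1 slide, with the KSL arrays on row 1 and the Gr arrays on row 2, so cell type and slide row cannot be told apart. Etv2 itself stood at -4.37 and -4.73 in KSL control, 0.19 and -1.24 in KSL Vav-Etv2, -4.48 and -0.54 in Gr control and -0.55 and -1.29 in Gr Vav-Etv2. Its probe was well above background on all 4 Vav-Etv2 arrays and also on the array labelled Gr control 2, which goes against that label.

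The probes on which the account turns are shown by their first 30 bases, since each value is the signal of that stretch of transcript and the Notch1 pair gave different values. Those of Notch1 lie on the minus strand of chromosome 2 in the mm9 build, the upstream one at chr2:26319440-26319499 and the downstream one at chr2:26314630-26314689, 4810 bases nearer the 3′ end. The other 4 lie at chr17:34725120-34725179 (plus strand, Notch4), chr2:119160779-119160838 (plus, Dll4), chr12:114146887-114146946 (minus, Jag2) and chr3:8663432-8663491 (minus, Hey1). No exon annotation of this build was used here.
Notch1, upstream probe: tcctgcagtggagggggccttgagacaggc
Notch1, downstream probe: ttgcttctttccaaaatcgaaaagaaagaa
Notch4: gttgatttcgagaatccctaaactctggaa
Dll4: tttgcccagactccatcctcacagctgggc
Jag2: ttgtataaattattcaacggctgtcaggcg
Hey1: gatttgggctctaaaagtattgttttacag

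In KSL cells the 10 genes did not move as a group between Vav-Etv2 and control. Notch1 was lower by 1.72 in the mean on its brighter probe, with both Vav-Etv2 arrays below the controls. Hey1 was detected in the controls and not in Vav-Etv2, while Notch4, Dll1, Dll4 and Jag2 were higher on Vav-Etv2 replicate 1 than on replicate 2. Notch2 and Hes1 differed by -0.01 and -0.21. None of the 7 tested members passed the threshold, a limma adjusted p of 0.05 after Benjamini-Hochberg adjustment over 23231 features. Of all features, 0.0172% were called in this comparison (4 features, 1 higher, or 0.00430%, and 3 lower, or 0.0129%), so a count of 0 of 7 is near that background. Before adjustment, 3 members had a p below 0.05, as had 1725 of the features. Of the 7, 2 were higher and 5 lower, with a median difference of -0.21 beside 0.00 over all features.

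Notch1, the receptor best known for T cell commitment, read 1.18 and 1.24 in KSL control and -0.77 and -0.26 in KSL Vav-Etv2 on the upstream probe. Both Vav-Etv2 arrays were below both control arrays. The difference was -1.72 (SE 0.33, 95% interval -2.52 to -0.92, 2 arrays a group), with an adjusted p of 0.214 by limma. The downstream probe read -3.33 and -3.33 in control and -2.20 and -2.72 in Vav-Etv2, so there both Vav-Etv2 arrays were above both controls, by 0.87 (limma adjusted p = 0.728). The probes of the same gene thus differed in sign, neither past the threshold. Their GC contents were 55.0% and 40.0%, and whether sequence or transcript form bears on the difference was not tested.

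**Figure D1:**
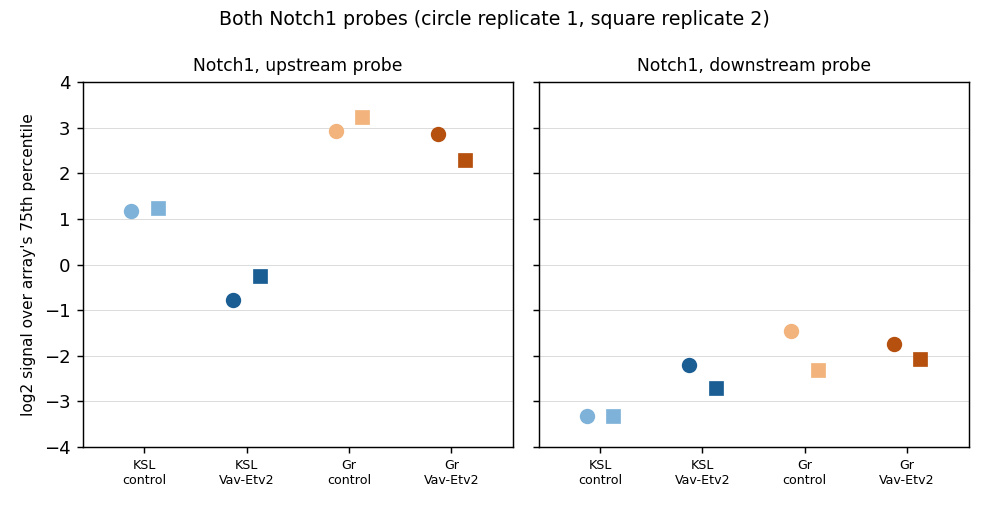
Levels of the upstream and the downstream Notch1 probe (vertical axis, log2 signal over the array's 75th percentile) on each of the 8 arrays, with circles for replicate 1 and squares for replicate 2. The KSL Vav-Etv2 arrays lie 1.72 below the KSL controls on the upstream probe and 0.87 above them on the downstream probe, and the Gr arrays lie above the KSL controls on both.

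Notch2, a receptor used by marginal zone B cells, read 3.07 and 3.12 in KSL control and 2.78 and 3.38 in KSL Vav-Etv2. The Vav-Etv2 arrays lay on either side of the controls, and the difference of -0.01 had a 95% interval of -0.79 to 0.76. Its other probe differed by 0.30.

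Notch4, a receptor known mainly from endothelium, read -1.57 and -1.53 in control and 1.88 and -1.39 in Vav-Etv2. Replicate 1 was 3.43 above the control mean and replicate 2 was 0.15 above it, so the mean difference of 1.79 (SE 0.95, limma adjusted p = 0.829) rested on 1 array. Without that array it was 0.15.

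The ligands showed the same array apart from the others. Dll4, the Delta ligand of arterial and tip endothelial cells, read -5.19 and -6.53 in KSL control and -2.71 and -5.23 in KSL Vav-Etv2. Dll1, a Delta ligand of stromal and other niche cells, read -5.20 and -5.14 in control and -1.34 and -4.91 in Vav-Etv2. Of all 8 arrays, only KSL Vav-Etv2 replicate 1 had either probe well above background. Taken over both Vav-Etv2 arrays against the detection limit of the controls, Dll1 was at least 2.05-fold and Dll4 at least 1.14-fold higher, with no test; on replicate 2 both lay under detection, 0.26 and 0.63 above the control mean.

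Jag2, a Jagged ligand, was well above background on all 4 KSL arrays. It read -1.75 and -1.45 in control and 0.42 and -1.13 in Vav-Etv2, so both Vav-Etv2 arrays were above both controls, by 2.03 and 0.48. The mean difference was 1.25 (SE 0.51, 95% interval 0.03 to 2.47, limma adjusted p = 0.664), and it was 0.48 without replicate 1. Jag1, the other Jagged ligand, read -4.64 and -4.58 in control and -6.50 and -4.58 in Vav-Etv2, not well above background on any KSL array, so no fold is given.

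Among the targets, Hes1, a repressor that keeps progenitors undifferentiated in many tissues, read -2.22 and -2.12 in control and -2.29 and -2.47 in Vav-Etv2. The difference of -0.21 had a 95% interval of -1.60 to 1.18. Hey1, a related repressor with a role in arterial endothelium, read -3.52 and -3.72 in control and -5.71 and -6.27 in Vav-Etv2. It was well above background on the 2 control arrays and on no other array of the 8. Hey1 therefore passed the filter through the KSL controls alone and had to read lower in Vav-Etv2. Against the detection limit of the Vav-Etv2 arrays it was at least 1.67-fold lower. The limma adjusted p was 0.204, and the difference was -0.26 with normexp. Efnb2, an arterial membrane ligand of Eph receptors, read -5.92 and -5.18 in control and -4.13 and -4.89 in Vav-Etv2 on 1 probe. Its other probe went the other way, with -5.84 and -5.36 in control and -6.23 and -6.04 in Vav-Etv2. None of these values was well above background.

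**Figure D2:**
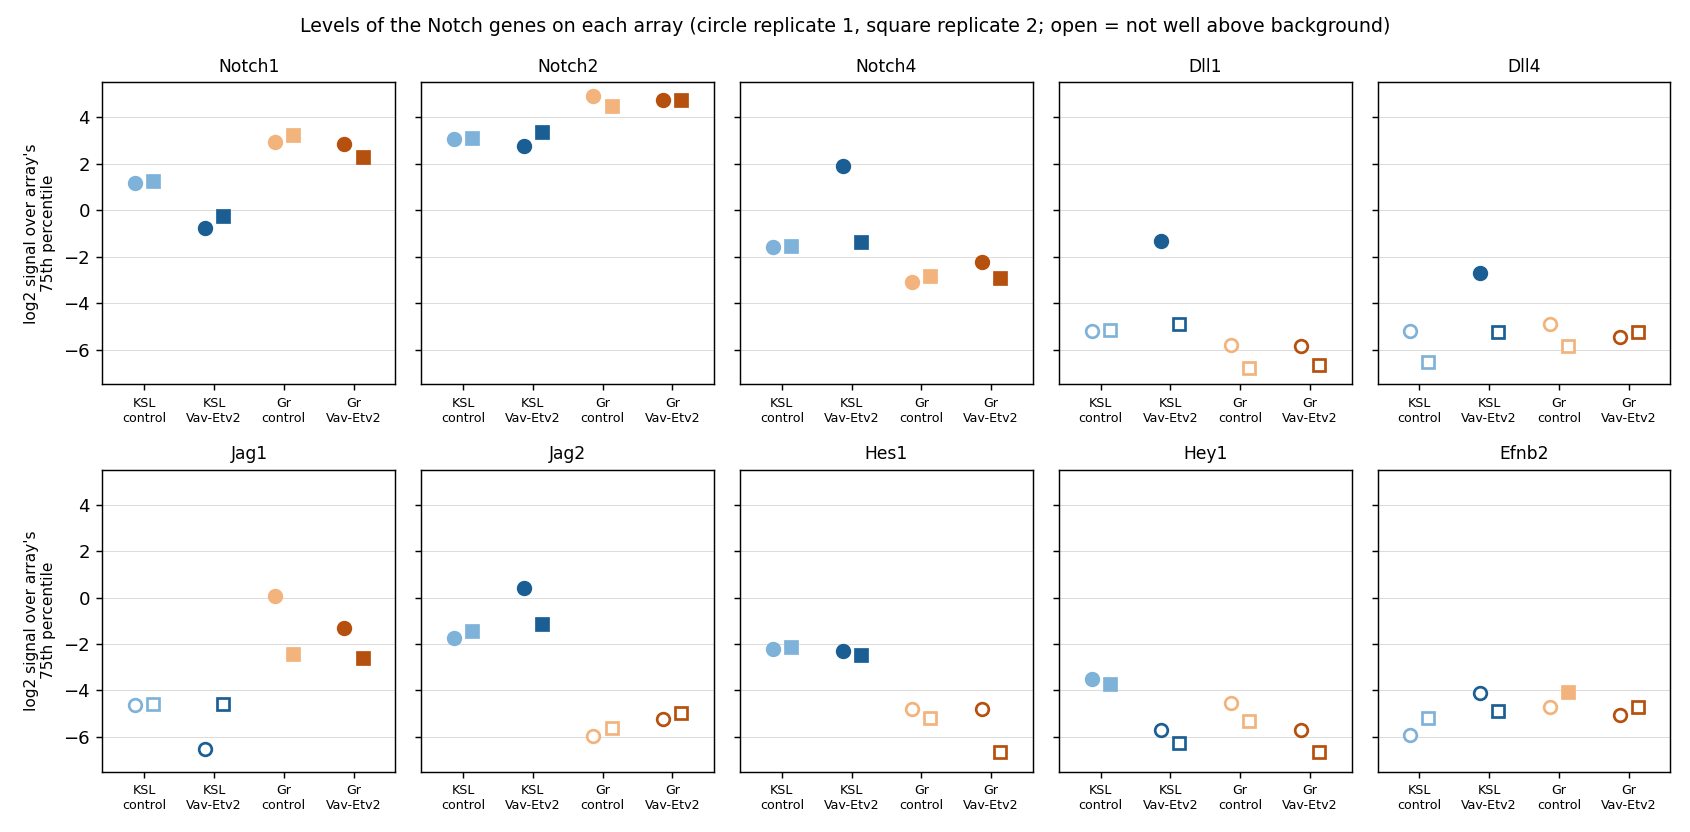
Level of each of the 10 genes on each of the 8 arrays (vertical axis, log2 signal over the array's 75th percentile), with circles for replicate 1, squares for replicate 2 and open symbols where the probe was not well above background. Notch4, Dll1 and Dll4 are high on KSL Vav-Etv2 replicate 1 alone among the KSL arrays, while Jag2 and Hes1 are detected on the 4 KSL arrays and Jag1 on the 4 Gr arrays.

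Markers of other cell types also differed from the controls on that array or on both Vav-Etv2 arrays. Of 15 measured endothelial markers, 14 were above the control mean on KSL Vav-Etv2 replicate 1 with a median of 2.33, and 10 of 15 were above it on replicate 2 with a median of 0.59. Differences over 2 log2 units were seen for 10 of the 15 on replicate 1 and 2 on replicate 2, against 2.46% and 0.706% of all features. Cdh5, the adhesion protein of endothelial junctions, was 7.23 and 2.10 above the control mean, Flt1 6.61 and 1.55, and Sox18 6.19 and 1.64. Kdr, a VEGF receptor that defines endothelial cells, was -0.03 and -0.27 from it. The summed endothelial signal in units of the array's 75th percentile was 45.0 and 40.0 in KSL control and 132 and 32.6 in KSL Vav-Etv2, and 13 to 16 of 16 markers were well above background on every KSL array. None of the 15 was called by limma in the KSL comparison, and 5 had an unadjusted p below 0.05.

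The same replicate was low in granulocyte markers, whose sums were 1610 and 1500 in KSL control and 150 and 1600 in KSL Vav-Etv2. The stem and progenitor sum was 297 and 318 in control and 230 and 247 in Vav-Etv2. All 8 of its genes were lower in the mean (median -1.11), none was called, and 3 had an unadjusted limma p below 0.05. The B lineage sum was 22.9 and 23.2 in control and 68.3 and 98.5 in Vav-Etv2. Megakaryocyte sums were 61.4 and 73.7 in control and 140 and 37.3 in Vav-Etv2, and mast cell and basophil sums 22.5 and 23.9 in control and 8.45 and 25.7 in Vav-Etv2. Monocyte and macrophage sums were 32.2 and 34.7 against 55.1 and 73.5, and erythroid sums 44.9 and 41.9 against 21.8 and 28.9. The stroma sums were 12.1 and 9.95 against 6.33 and 6.83. T and NK sums were 19.8 and 19.7 against 18.9 and 21.3, although 6 of those 8 genes were lower in the mean. Mast cell and granulocyte sums thus stood apart on replicate 1, as the endothelial sum did. The megakaryocyte sum lay above the controls on replicate 1 and below them on replicate 2. Stem and progenitor, B lineage, monocyte, erythroid and stroma sums lay on the same side of the controls on both arrays. The part of these cell types in the values of Notch4, Dll1, Dll4 and Jag2 was not tested. In bulk RNA a change in the number of cells of a type and a change in RNA per cell cannot be told apart.

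**Figure D3:**
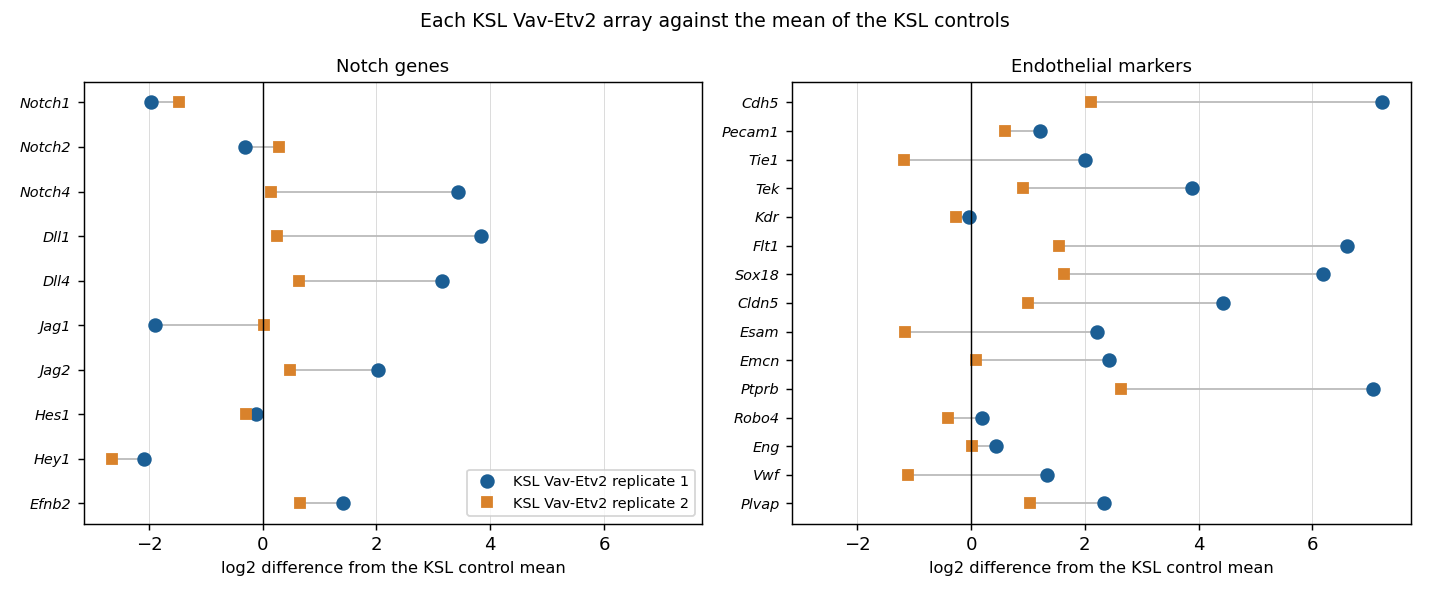
Difference of each KSL Vav-Etv2 array from the mean of the 2 KSL control arrays (horizontal axis, log2), for the 10 Notch genes on the left and 15 endothelial markers on the right, with circles for replicate 1 and squares for replicate 2. Replicate 1 is 3.43 above the control mean for Notch4 and 7.23 for Cdh5, replicate 2 is 0.15 and 2.10 above it, and Notch1 and Hey1 are lower on both, with Hey1 under detection there.

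In Gr cells no member was called between Vav-Etv2 and control, where 0.00861% of all features were called. Each of the 7 adjusted p-values was 1.00 by limma, and 1 member, Hey1, had an unadjusted p below 0.05, as had 296 of the features. The 95% intervals of Notch2 (-0.75 to 0.79) and Notch1 (-1.30 to 0.30) were the narrowest among the genes above background there. Because the array labelled Gr control 2 carried Etv2 signal, the differences are also given without it. That leaves 1 control array, replicate 1, against Vav-Etv2 replicates 1 and 2. Deviations of same-numbered arrays correlated at 0.658 between the Gr groups, so differences between replicate numbers are not separated from these values. Granulocyte sums were 9950 and 4650 in Gr control and 8800 and 4710 in Gr Vav-Etv2. Mast cell and basophil sums were 5.96 and 83.6 in control and 1.63 and 51.9 in Vav-Etv2. Both differed mainly by replicate number. B lineage sums were 8.48 and 6.09 in control and 27.3 and 6.70 in Vav-Etv2. Gr Vav-Etv2 replicate 1 also had the highest megakaryocyte sum of the Gr arrays. The part of these cell types in the Gr values was not tested.

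Notch1 read 2.94 and 3.23 in Gr control and 2.86 and 2.30 in Gr Vav-Etv2, a difference of -0.50, or -0.36 without the array labelled Gr control 2. Notch2 read 4.92 and 4.48 in control and 4.72 and 4.72 in Vav-Etv2, a difference of 0.02, or -0.20 without that array. Notch4 read -3.11 and -2.84 in control and -2.22 and -2.93 in Vav-Etv2, a difference of 0.40, or 0.53 without it. For Notch2 and Notch4 the control and Vav-Etv2 arrays overlapped, and for Notch1 both Vav-Etv2 arrays were below both controls.

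Jag1 was the one ligand well above background in Gr cells, on all 4 arrays. It read 0.08 and -2.44 in control and -1.31 and -2.62 in Vav-Etv2, so the controls differed from each other by more than the groups did. The difference was -0.78 (95% interval -3.08 to 1.51), and -2.04 without the array labelled Gr control 2. Jag2 read -5.98 and -5.61 in control and -5.22 and -4.97 in Vav-Etv2, and Dll1 and Dll4 read between -6.79 and -4.91, all under detection. Hes1 read -4.79 and -5.17 in control and -4.78 and -6.66 in Vav-Etv2, and Hey1 -4.55 and -5.31 in control and -5.71 and -6.64 in Vav-Etv2. No Gr array had Hes1 or Hey1 well above background, so their differences of -0.74 and -1.24 have no fold. Without the array labelled Gr control 2 they were -0.93 for Hes1, -1.63 for Hey1 and 0.88 for Jag2. Efnb2 was well above background on 1 array, the one labelled Gr control 2, at -4.05.

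The Vav-Etv2 effect was also compared between the cell types, as the KSL difference minus the Gr difference. None of the 7 members was called, with 0.00430% of all features called. Notch1 had the lowest unadjusted p (0.0375) with -1.22 (SE 0.47, limma adjusted p = 1.00), and Notch4 stood at 1.39, Hey1 at -1.13, Jag2 at 0.56, Hes1 at 0.53, Jag1 at -0.14 and Notch2 at -0.03. For Hey1, Jag2, Hes1 and Jag1 at least 1 of the cell types was under detection. A lower Notch1 in KSL Vav-Etv2 cells was therefore not shown to be particular to KSL cells.

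KSL and Gr cells differed in the levels of most tested Notch genes in both genotypes. Averaged over genotypes, Jag2, Hes1 and Notch4 were higher in KSL cells, and Notch1, Notch2 and Jag1 higher in Gr cells. These were 6 of the 7 tested members, in a comparison where 50.7% of all features were called, so a call is not in itself a mark of these genes. Jag1, Jag2 and Hes1 passed the detection filter through 1 cell type alone and had to differ, which takes them out of any count as support.

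Jag2 showed a mean level of -0.98 over the 4 KSL arrays and -5.44 over the 4 Gr arrays, at least 10-fold higher in KSL cells (limma adjusted p = 3.22e-04). Hes1 showed -2.28 and -5.35, at least 4.08-fold higher in KSL cells (0.00160 by limma). Jag1 showed -5.07 and -1.57, at least 6.44-fold lower in KSL cells (0.00633 by limma). For these 3 genes no KSL array overlapped a Gr array. Each passed the filter through its higher cell type alone, so neither this nor the p-values count as support.

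Notch1 averaged 0.35 in KSL and 2.83 in Gr cells on the upstream probe, a 5.60-fold lower level in KSL cells (difference -2.49, SE 0.24, limma adjusted p = 5.11e-04). The downstream probe gave the same direction at -1.0 (0.0213 by limma), although there the KSL and Gr arrays overlapped. Notch2 averaged 3.09 and 4.71, 3.08-fold lower in KSL cells (-1.62, SE 0.23, limma adjusted p = 0.00194), and its other probe gave -1.63. Notch4 averaged -0.65 and -2.78, 4.36-fold higher in KSL cells (2.12, SE 0.67, limma adjusted p = 0.0356). All KSL arrays were above all Gr arrays for Notch4, but KSL Vav-Etv2 replicate 1 set the size: without it the difference was 1.30 (0.0179 by limma). The Notch4 call was lost without any 1 of the control arrays or either Gr Vav-Etv2 array (limma adjusted p 0.0642 to 0.0906). It was lost too with normexp background correction (1.13, limma adjusted p = 0.0928), as were those of Jag1 (-1.05) and Hes1 (0.56). Jag2 kept its call with normexp at a smaller 1.46 (limma adjusted p = 0.00451), below the bound given above.

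Hey1 differed by 0.75 (limma adjusted p = 0.0863), with overlapping arrays. Dll1 read higher on every KSL array than on any Gr array, though 7 of these 8 values lay under detection. Dll4 and Efnb2 overlapped between the cell types. Of 8 stem and progenitor markers, 7 rose in KSL against Gr cells and 1 fell, and 7 of 9 granulocyte markers fell. The one that fell was Ly6a, which encodes the Sca-1 of the KSL gate. It read 3.65, 3.59, 2.26 and 3.09 on the KSL arrays and 6.18, 4.48, 6.33 and 4.50 on the Gr arrays, against the label. S100a9, a granulocyte protein, read 9.69 and 9.48 in KSL control and 10.66 and 9.59 in Gr control, so granulocyte transcript was plentiful in the lineage-negative gate too.

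The rest of the pathway was read from 6 lists of other genes, 84 in all, of which 83 were on the array and 75 were measured. In the KSL comparison of Vav-Etv2 with control none of the 75 was called, against 0.0172% of all features, with a median of 0.04, and 7 had an unadjusted p below 0.05. Dlk1, a Delta-like protein that lacks the domain for activating Notch and marks fetal and progenitor cells, had the largest negative difference. It read 2.00 and 1.77 in KSL control and -2.92 and -2.28 in KSL Vav-Etv2, with both Vav-Etv2 arrays far below both controls. The difference of -4.48 (SE 0.63) missed the threshold with a limma adjusted p of 0.111, and passed it with a floor on low signals (-4.48, 0.0140 by limma) and with normexp (-3.07, 0.0167 by limma). Notch3, the fourth receptor, read -3.00 and -3.23 in control and -6.62 and -4.36 in Vav-Etv2. Only the KSL control arrays had it above background, which is how it passed the filter, so it had to read lower elsewhere. Against the detection limit it was at least 2.36-fold lower (limma adjusted p = 0.796).

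Of the 12 measured target genes, 5 were higher and 7 lower in KSL Vav-Etv2, with a median of -0.09, none called and 3 with an unadjusted p below 0.05. Nrarp, a Notch-induced inhibitor of the pathway, read -3.31 and -3.12 in control and -1.13 and -2.08 in Vav-Etv2, a difference of 1.61 (SE 0.45, limma adjusted p = 0.417). Ccnd1, a cyclin of the G1 phase, was 1.00 higher (SE 0.28, limma adjusted p = 0.417). Bcl11b and Gata3, which encode T cell factors, stood at -1.35 and -1.21. Both Vav-Etv2 arrays were above both controls for Nrarp and below them for Bcl11b and Gata3, so target genes pointed both ways.

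Most of the arterial and venous list was again higher on KSL Vav-Etv2 replicate 1 than in the controls. Acvrl1 was not, at -0.58 there against -0.21 and -0.51 in control. All 7 measured genes of the list had a positive mean difference, down to 0.04 for Acvrl1, with a median of 1.12 beside 0.00 over all features. None was called, and 1 had an unadjusted limma p below 0.05. Gja4, an arterial gap junction protein, read -4.0 and -4.13 in control and 3.42 and -2.26 in Vav-Etv2. With the controls under detection it was at least 24.8-fold higher in the mean (limma adjusted p = 0.584), a size set by replicate 1. Nrp2, a semaphorin and VEGF co-receptor, read -1.76 and -1.80 in control and 3.02 and -1.32 in Vav-Etv2. Efna1, an ephrin ligand, read -2.87 and -3.14 in control and 1.11 and -3.93 in Vav-Etv2, above the controls on replicate 1 and below them on replicate 2.

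The machinery lists had KSL medians of -0.12 (14 signal production genes), -0.02 (17 trafficking genes) and 0.08 (22 nuclear genes), with none called. Examples were Aph1a at 0.36 and Furin at -0.44 for signal production, Numb at 0.99 and Nedd4 at -0.83 for trafficking, and Tle4 at 0.83 and Tle2 at -1.37 for nuclear cofactors. In Gr cells none of the 75 genes was called, the median was 0.00 and 1 gene, Ccnd1 at 0.73, had an unadjusted p below 0.05. Nrp2 had the highest value there, 1.22. Between the 2 effects none of the 75 was called either and 4 had an unadjusted p below 0.05: Dlk1 at -3.57, Tle2 at -2.28, Bcl11b at -1.91 and Nrarp at 1.81. Nrarp and Bcl11b were under detection on all Gr arrays. Gja4 stood at 3.92 with an unadjusted p of 0.139.

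Between cell types, 20 of the 75 rose and 24 fell in KSL against Gr cells, with a median of -0.22 beside -0.14 over all features. Target genes lay mainly on the KSL side: 10 of 12 rose and none fell, with a median of 3.07. They included Gata3 (4.42) and Tcf7 (4.38), T lineage factors, Myc (4.23), Ccnd1 (3.69) and Hes5 (3.14), while Hes7 was at -0.68 and missed the threshold. Nrarp (at least 3.72-fold higher) and Bcl11b (at least 2.43-fold) passed the filter through KSL arrays alone and had to differ. Without them 8 of 10 rose, Tcf7 among these, and with them at their bounds the median was 2.19. Tcf7 was well above background on only 5 of 8 arrays and read -4.36 to -6.20 in Gr cells. It too could meet the filter only through KSL arrays, so its rise counts as no support. Over the array 24.2% of features rose and 26.5% fell, and Myc and Ccnd1 are also controlled by many signals other than Notch. Dtx1 (2.20), a Deltex protein, is counted both here and among the trafficking genes.

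For the lists that follow, 50.7% of all features were called in this comparison, so a call is not in itself a mark of their genes. Of 14 signal production genes, 6 fell in KSL cells and 1 rose. The gamma-secretase subunits Aph1b (-2.96), Ncstn (-1.08) and Psenen (-0.75) and the receptor-cleaving protease Furin (-1.68) were among those lower in KSL cells. Mfng (2.49), a sugar transferase that tunes ligand choice, was the one that rose. Trafficking genes split, with 4 of 17 up and 6 down: Dtx3 (3.21), Neurl1a (1.65) and the ubiquitin ligase Nedd4 (1.60) were higher in KSL cells, and Numb (-2.86), an inhibitor of Notch, and Mib2 (-1.21), a ligand ubiquitin ligase, lower.

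Of the 22 nuclear genes, 4 rose and 8 fell, where 24.2% of all features rose and 26.5% fell. The Mastermind coactivators split, with Maml3 (3.1) and Maml2 (3.09) higher in KSL cells and Maml1 (-1.98) lower. Likewise the acetyltransferases Kat2a (2.82) and Kat2b (-1.75) stood on opposite sides, the corepressor Tle2 (3.01) was higher, and Rbpj, the DNA-binding partner, was lower at -0.81 (limma adjusted p = 0.0163). Of 7 arterial and venous genes, Acvrl1 (-4.31), Gja5 (-3.16) and Nrp1 (-2.01) fell. Efna1 was at least 4.28-fold higher in KSL cells, having passed the filter through KSL arrays alone. Among the other receptors and ligands Dlk1 rose (4.52) and Dlk2 fell (-0.96). Maml2, Dlk1 and Gja5 were each well above background on only 5 of 8 arrays. Maml2 and Dlk1 could meet the filter only through KSL arrays and Gja5 only through Gr arrays, so their differences count as no support.

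**Figure D4:**
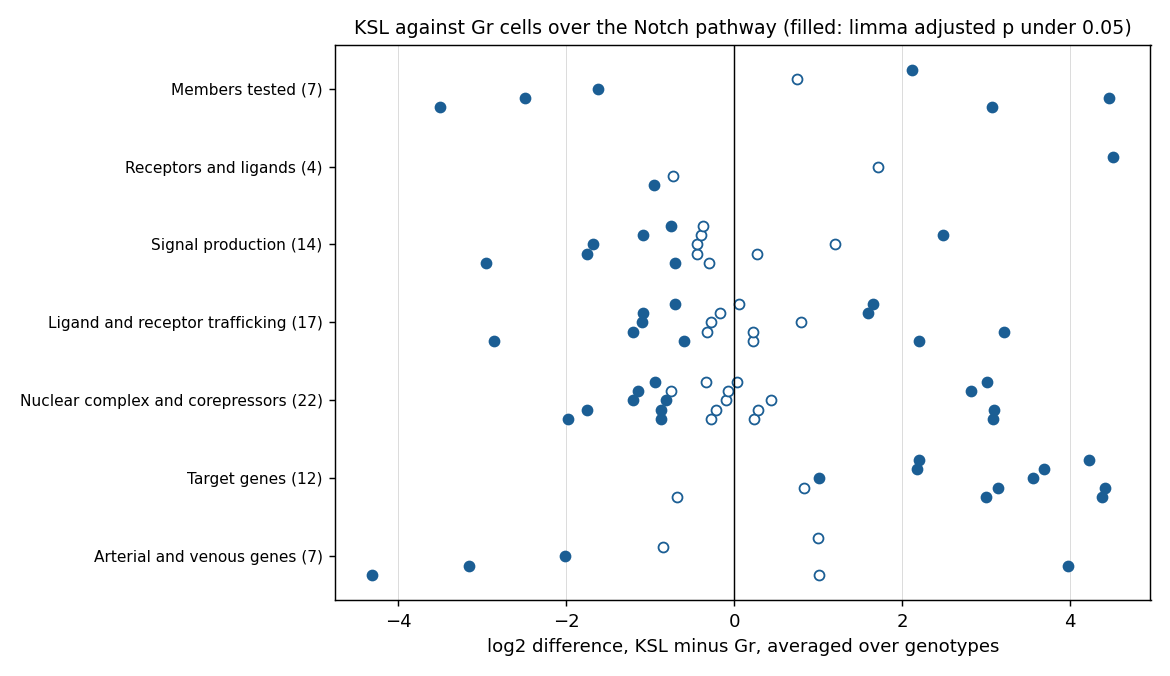
Difference between KSL and Gr cells averaged over genotypes (horizontal axis, log2) for the 7 tested Notch genes and the 6 lists of other pathway genes, 1 point a gene, filled where the limma adjusted p was below 0.05. Filled points of the target genes all lie on the KSL side (10 of 12 genes), and those of signal production lie mainly on the Gr side (6 of 14). Over all features 50.7% were called.

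Patterns most like each member were sought among all tested features by Pearson's r over the 8 arrays, as a description, since the arrays share 2 cell types that set most of the pattern. Only members well above background on at least 4 arrays were used. For Notch4 the nearest were Exoc3l (0.989) and Ccm2l (0.986). For Jag2 they were 4732423E21Rik (0.999), Mterf2 (0.996) and Thsd1 (0.995), and for Hes1 Pdgfa (0.991), Tcf7 (0.991) and Xcl1 (0.990). Notch2 was nearest to Cytip (0.998), Igsf6 (0.997) and Dock2 (0.997), and Jag1 to Pdzk1 (0.998), Akt2 (0.997) and Cd300c (0.995). For the upstream Notch1 probe the nearest were 3 features without a gene symbol, with r of 0.996 to 0.997.

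Promoter windows of 250 bases before the start were read from RefSeq (GRCm38.p6) for 8 of the 10 members, 9 windows in all. The promoter set used held no entry for Hes1 or Hey1, so the counts below leave out both target genes. The RBPJ core TGGGAA, on either strand, was in 0 of 9 windows, against 21.6% of 32851 promoter windows of that length. The ETS core GGAA, on either strand, was in 8 of 9 windows, against 93.4% of all, so its presence sets these genes apart from no other. GGAA also lies within TGGGAA. Matches are descriptions of letters, not of binding. The Notch1 window had 4 GGAA matches, those of Notch2 and Jag1 3 each, and that of Efnb2 1. Dll1 had 1 in each of its windows and Jag2 had 0, although both genes were also higher on KSL Vav-Etv2 replicate 1 than in the controls. Notch1 was lower there on its upstream probe. The windows of Notch4 (chr17:34564045-34564294, plus strand, 5 matches) and Dll4 (chr2:119325534-119325783, plus strand, 2 matches), both high on KSL Vav-Etv2 replicate 1, are shown with GGAA or its reverse TTCC in capitals.
Notch4 promoter: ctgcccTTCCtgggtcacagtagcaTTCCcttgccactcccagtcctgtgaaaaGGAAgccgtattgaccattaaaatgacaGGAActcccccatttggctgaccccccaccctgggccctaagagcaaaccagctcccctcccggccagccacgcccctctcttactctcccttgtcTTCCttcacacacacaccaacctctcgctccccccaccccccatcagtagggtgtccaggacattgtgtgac
Dll4 promoter: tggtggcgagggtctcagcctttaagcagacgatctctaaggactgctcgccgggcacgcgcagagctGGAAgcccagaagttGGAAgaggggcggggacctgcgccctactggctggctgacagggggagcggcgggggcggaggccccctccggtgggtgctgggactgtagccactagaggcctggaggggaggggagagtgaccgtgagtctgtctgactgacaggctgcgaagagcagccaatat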

How the data were processed

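Cy3-labelled total RNA from FACS-sorted cells was hybridised to 1-colour Agilent arrays and read with Agilent Feature Extraction (10.7.3.1 per the file headers, 10.7 per the submitters' processing notes). The deposited scanner files give processed signal intensity per spot, background-subtracted by the authors' scanner software, and, per the file headers, flags for signal well above background and saturation. A deposited table of log2 values, centred within cell type as judged against the scanner files, served as a check only. Its column medians ran from -0.26 to 0.29. Once each array's median difference was taken out, its values fell within 0.01 of the recomputed ones for 99.7% to 99.8% of probes. The scaling of each array was therefore not checked.

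Of 62976 spots an array, 59305 were not controls and gave 55681 probes after averaging. Levels are log2 processed signal minus the array's 75th percentile over probes (136 to 300 signal units). Features needed a probe well above background on at least 2 of 8 arrays (32352 probes); the brightest such probe stood for a gene, leaving 23231 features. Gene names were updated through RefSeq by accession for 26574 probes and by symbol for 2600, with 491 older symbols, and 25996 kept the name on the array. limma 3.58.1 (R 4.3.3) fitted 4 group means over the 8 arrays, with 4 residual and 2.77 prior degrees of freedom, and gave 4 comparisons with Benjamini-Hochberg adjustment at 0.05. The script was tested on simulated data. With 2 arrays a group the number of arrays limits precision. Where the lower group was not well above background on any array, its detection limit replaced it ("at least N-fold").

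All 10 members are named. Of each pathway list, up to 6 called genes and the 2 largest differences each way qualified for naming. A gene of these and one among the most similar patterns are not reported here. Members, lists and markers were chosen with earlier results of these data known. Alternatives tried were other background correction, scaling, filters, a floor, single probes, a variance trend, a replicate block, fewer arrays and leaving out each array.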

Additional observations from a re-analysis of the deposited data

How the results depend on the processing

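No member was called in the Vav-Etv2 comparisons under any alternative run, in KSL cells, in Gr cells or in the difference of the effects. The count of features called in KSL cells was 4, and 16 with normexp, 27 with median scaling, 50 with quantile normalization, 14 with a floor and 0 when detection on all 8 arrays was required. In Gr cells it was 2, and 0 with normexp, 1 with no filter, 0 with detection on all 8 arrays, 1 with each probe by itself, 1 with a variance trend, 0 with the replicate block and 0 with Gr arrays fitted alone. For the difference of effects it was 1, and 4 with normexp, 2 with median scaling, 5 with quantile normalization, 4 with a floor, and 0 with no filter, with detection on all 8 arrays, with a variance trend or with the replicate block. Between cell types 11780 features were called and 6210 with control arrays alone. Leaving out each array in turn gave 0 to 37 features in KSL cells, 0 to 2 in Gr cells, 0 to 0 for the difference of effects and 8041 to 12894 between cell types, where 5 to 6 members and 32 to 48 other pathway genes were called. The labels do not say that replicate numbers pair the arrays. The correlation of same-numbered deviations was 0.658 between the Gr groups, 0.0681 between the KSL groups and -0.0556 to 0.133 across cell types. With 2 numbers a group this does not settle the pairing. Within numbers 1 and 2 the Gr differences were -1.16 and -1.33 for Hey1, 0.76 and 0.63 for Jag2 and -1.39 and -0.18 for Jag1, and the replicate block called none of them.

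Of the 6 members called between cell types, 3 were with normexp and 3 with detection on all 8 arrays, which left 3 to test. With normexp Notch4 was 1.13 (limma adjusted p = 0.0928), Jag1 -1.05 (0.0516) and Hes1 0.56 (0.112), the cause of which was not tested. Notch4 also missed the threshold without any single control array (0.0642 to 0.0906) or either Gr Vav-Etv2 array (0.0650 and 0.0881), and without a filter (0.0509). Hey1 passed it with quantile normalization (0.0335), the replicate block (0.0264) or without Gr Vav-Etv2 replicate 1 (0.0475). In KSL cells the Hey1 difference was -0.26 with normexp and -0.74 with a floor.

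Signs turned only for members with no call. With normexp the difference of effects was 0.39 for Jag1 and -0.02 for Hes1, and with a floor 0.58 and -0.33. Notch2 in KSL cells was 0.04 with median scaling, and in Gr cells a floor gave 0.12 for Hes1 and 0.12 for Hey1. The other probe gave 0.87 (Notch1) and 0.30 (Notch2) in KSL cells, -0.74 for Notch2 in Gr cells, and 0.90 (Notch1) and 1.04 (Notch2) for the difference of effects. Without 1 array, ranges crossing 0 were -0.31 to 0.29 (Notch2) and -1.89 to 0.03 (Jag1) in KSL cells, -0.20 to 0.24 (Notch2), -2.04 to 0.47 (Jag1) and -1.68 to 0.20 (Hes1) in Gr cells, and for the difference of effects -0.33 to 0.27 (Notch2), -0.25 to 3.03 (Notch4), -1.40 to 1.11 (Jag1), -0.22 to 1.33 (Jag2) and -0.41 to 1.47 (Hes1). Low signal limits Dll1, Dll4, Efnb2 and Hey1, and 2 arrays a group limit every comparison.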
